A study of Mus musculus with 6 samples.

Results

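The aminoacyl-tRNA synthetases are the enzymes that attach each amino acid to its tRNA. The 36 synthetase genes described here were taken from the 23183 gene symbols of the deposited tables by their symbols. Of these, 20 were counted as cytosolic and 16, whose symbols end in 2, as mitochondrial. The study sequenced mRNA of CD4+ CD8+ double positive (DP) thymocytes sorted from the thymus of C57BL/6 mice aged 6 weeks, with 3 libraries for each of the 2 genotypes. WT mice were NSRP1f/f and carried floxed alleles without Cre. NSrp70-cKO mice were NSRP1f/fCD4Cre and carried the same floxed alleles with a Cre recombinase that is driven by CD4 regulatory sequences, so that deletion begins in thymocytes. The comparison of cKO with WT asks which genes depend on NSrp70, a splicing regulator of nuclear speckles that is encoded by Nsrp1.

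A synthetase activates its amino acid with ATP and transfers it to the tRNA that carries the matching anticodon, and the charged tRNA is then handed to an elongation factor and brought to the ribosome. Mitochondria translate their own small set of mRNAs, and most of their synthetases are encoded by separate nuclear genes and imported. Several cytosolic enzymes are held with the scaffold proteins AIMP1, AIMP2 and AIMP3 in a large multi-synthetase complex. In textbook accounts, transcription of many cytosolic synthetase genes increases through ATF4 when amino acids are scarce. DP thymocytes arise from dividing precursors and become small resting cells while they rearrange the T cell receptor alpha chain.

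All values are FPKM (fragments per kilobase of transcript, relative to all fragments mapped in that library), which the authors deposited for each gene and library. The estimated depth was 20.7 to 20.8 M fragments (M, mega) in the WT libraries and 13.1 to 20.5 M fragments in the cKO libraries. The study states a larger figure, in sequenced paired-end reads, which is another measure than fragments inferred from FPKM. The counting noise below was computed from the estimated depth. The WT libraries differed from each other by little more than counting noise, with a mean chi-square of 1.51 to 1.61 per gene and pair, and the cKO libraries differed far more, with 32.3 to 69.7. No source states that the libraries came from separate animals, so p-values measure only the spread between these libraries, which may be technical. Nsrp1, listed under its older symbol Ccdc55, was at 20.2, 20.7 and 21.1 FPKM in WT and at 17.7, 15.8 and 15.0 in cKO. The FPKM covers the whole gene, so this value does not measure the deletion itself. Of 12 DP markers, 8 were higher and 2 lower in cKO, and their summed level was 6438 to 6503 in WT and 8452 to 10765 in cKO. The direction of that count turned with the scaling: quantile scaling gave 1 higher and 6 lower, and the same FPKM total gave 2 and 4. All 14 proliferation markers were higher in cKO (13 under quantile scaling, and 12 with 1 lower at the same FPKM total), with summed levels of 1292 to 1300 FPKM in WT and 2580 to 2939 in cKO. Of 10 markers of mature single positive cells, 9 were lower and 1 was higher, with a median log2 fold change of -1.70. Their sums were 209 to 215 in WT and 163 to 172 in cKO. Of the other marker lists, 3 of 3 tested double negative markers were lower, with sums of 11.9 to 13.1 in WT and 5.77 to 7.06 in cKO. The B cell marker Cd79b (1 of 1 tested), the myeloid marker Cst3 (1 of 4) and the erythroid markers Hbb-b1 and Hba-a1 (2 of 2) were higher, with list sums of 22.8 to 24.2, 125 to 130 and 1.98 to 2.73 FPKM in WT and 26.7 to 39.4, 194 to 373 and 12.4 to 26.6 in cKO, while the 1 tested epithelial marker was not called and Krt5 and Foxn1 were at 0 in all 6 libraries. Xist was at 69.8 to 72.0 FPKM in WT and 4.07 to 5.44 in cKO, and the Y-linked Ddx3y was at 0 in every WT library and at 26.2 to 35.0 in cKO. Sex and genotype therefore cannot be told apart here. The part that proliferation, maturation or sex play in the results below was not tested, and in bulk samples a change in cell types and a change in RNA per cell cannot be told apart.

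Most cytosolic synthetases were higher in cKO DP thymocytes. Of the 20 genes, 13 passed the test as higher, 1 as lower and 6 did not pass. The median log2 fold change was 0.67, against 0.04 for all 10326 tested genes. Among all tested genes, 35.8% were called higher and 29.8% lower. A gene was called when limma, on log2 of scaled FPKM plus 1, gave a Benjamini-Hochberg adjusted p under 0.05. The 13 increases ran from 1.20-fold to 2.24-fold in mean FPKM. By ranges alone, 13 cytosolic genes had all 3 cKO libraries above all 3 WT libraries and 2 had them below, whereas 39.2% of all tested genes lay entirely above and 33.3% entirely below.

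**Figure D1:**
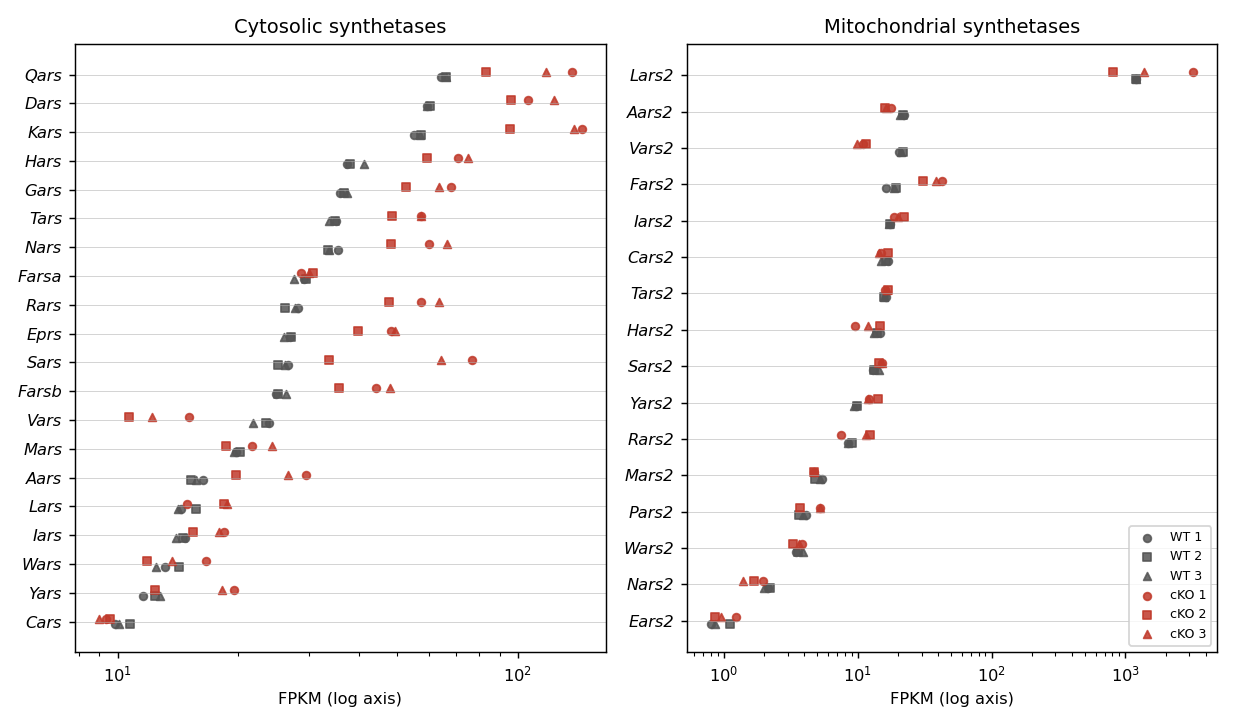
FPKM of each synthetase in each library on a log axis, with cytosolic genes in the left panel and mitochondrial genes in the right panel, ordered by WT mean; grey symbols are WT and red symbols are cKO. The grey symbols lie close together, the red symbols of Kars, Rars and Dars lie to their right, those of Vars and Vars2 to their left, and those of Lars2 spread from 802 to 3214.

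In the reported fit, the largest cytosolic increases were in the enzymes for lysine, serine and arginine. Kars, the lysyl-tRNA synthetase, was at 55.2, 57.3 and 56.8 FPKM in WT and at 144, 95.3 and 138 in cKO. Its log2 fold change was 1.12 ± 0.16 (SE, n = 3 per group, limma adjusted p = 0.000906), or 2.23-fold in mean FPKM. All cKO libraries of Kars lay above WT, with cKO 2 the lowest. Sars, which charges serine tRNA, was at 26.7, 25.2 and 26.2 FPKM in WT and at 76.9, 33.7 and 64.2 in cKO. The groups did not overlap, but the spread among cKO libraries was wide and the log2 fold change was 1.05 ± 0.28 (SE, n = 3 per group, limma adjusted p = 0.0126). Rars, the arginyl-tRNA synthetase, was at 28.2, 26.3 and 27.8 FPKM in WT and at 57.3, 47.6 and 63.3 in cKO. It had the smallest adjusted p of the cytosolic increases, 0.000395 by limma, with a log2 fold change of 1.00 ± 0.11 (SE, n = 3 per group).

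The abundant enzymes for aspartate, glutamine and histidine also rose. Dars was at 59.3, 60.3 and 59.3 FPKM in WT and at 106, 96.0 and 123 in cKO, a log2 fold change of 0.84 ± 0.10 (SE). Qars had the highest WT level of the cytosolic genes, 64.4, 66.0 and 66.2 FPKM, and lay at 137, 83.2 and 117 in cKO. Its increase of 0.74 on the log2 scale had a limma adjusted p of 0.0076, since cKO 2 lay well below the other 2 cKO libraries. Hars was at 37.4, 38.0 and 41.2 FPKM in WT and at 70.7, 59.4 and 74.8 in cKO, with a log2 fold change of 0.79. Eprs, a single protein that charges both glutamate and proline tRNAs, rose from 27.0, 27.0 and 26.0 FPKM to 48.1, 39.8 and 49.3, with a log2 fold change of 0.75. In each of these 4 genes cKO 2 was the lowest cKO library and still lay above every WT library.

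The other cytosolic increases were of similar or smaller size. Gars, for glycine, had a log2 fold change of 0.72, and Nars, for asparagine, one of 0.73. Farsb, the beta subunit of the phenylalanine enzyme, rose by 0.71 on the log2 scale, and Aars and Tars, for alanine and threonine, each rose by 0.63. After correction for GC content and length, which changed the order of the increases, Aars was at 1.23, Sars at 1.24, Kars at 1.02 and Rars at 0.72. Iars, for isoleucine, was the smallest called increase, at 0.24 ± 0.08 (SE, limma adjusted p = 0.0382), from 14.7, 14.6 and 14.0 FPKM to 18.4, 15.5 and 17.9. Its call was lost without any 1 library other than cKO 2, and that of Sars was lost without cKO 3 (limma adjusted p = 0.0606).

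Vars, which charges valine tRNA, was the cytosolic gene that fell. It was at 23.9, 23.5 and 21.8 FPKM in WT and at 15.0, 10.7 and 12.2 in cKO, with a log2 fold change of -0.83 ± 0.12 (SE, n = 3 per group, limma adjusted p = 0.00104). The groups did not overlap. The 6 genes that did not pass had log2 fold changes from -0.12 to 0.40. Of these, Yars, for tyrosine, was at 11.6, 12.4 and 12.7 FPKM in WT and at 19.5, 12.4 and 18.2 in cKO, so that cKO 2 lay within the WT range, and its adjusted p was 0.0633. Farsa, the alpha subunit of the phenylalanine enzyme, was at 29.3, 29.6 and 27.6 FPKM in WT and at 28.7, 30.7 and 30.1 in cKO. Its log2 fold change was 0.05, with a 95% interval of -0.10 to 0.19, while that of its partner subunit Farsb was 0.71 with an interval of 0.45 to 0.98. Cars, Lars, Mars and Wars, for cysteine, leucine, methionine and tryptophan, had log2 fold changes of -0.12, 0.21, 0.10 and 0.06.

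**Figure D2:**
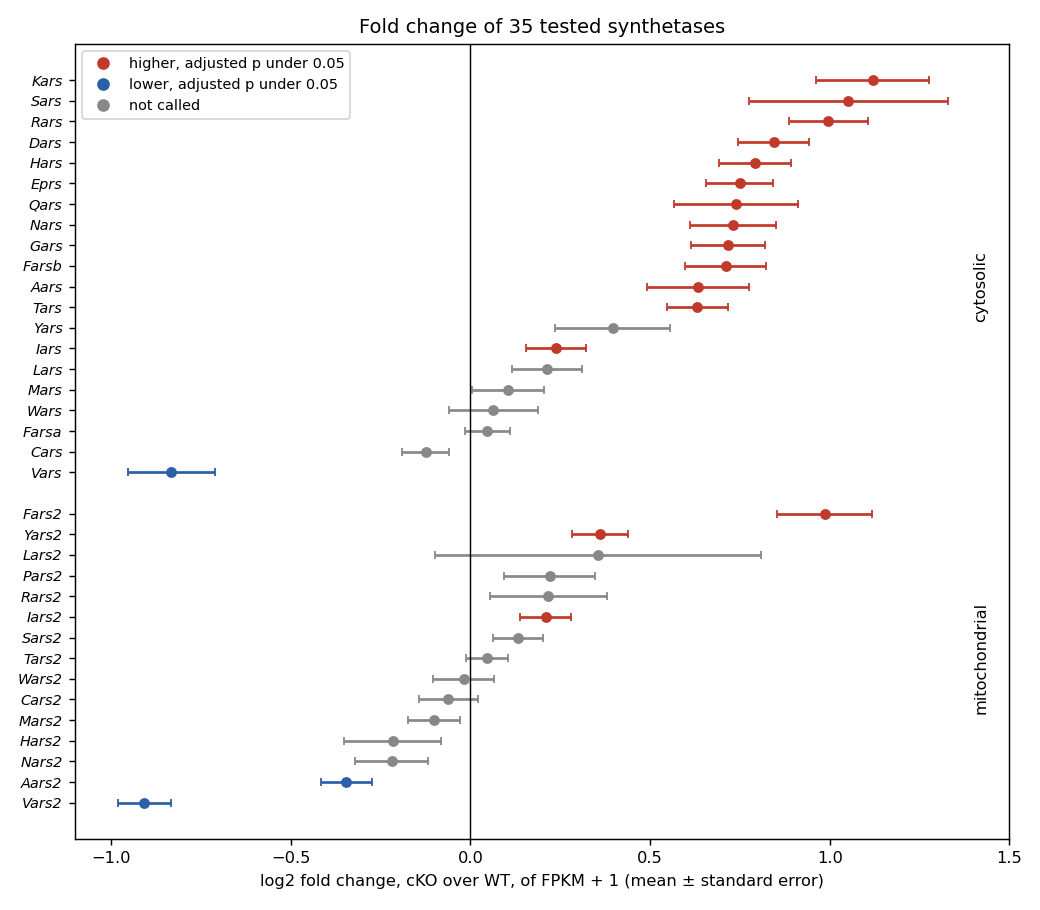
Log2 fold change of cKO over WT, on the scale of scaled FPKM plus 1, for the 35 tested synthetases; points are the limma estimates and bars their standard errors, red for called higher, blue for called lower and grey for not called. The cytosolic genes reach from -0.83 for Vars to 1.12 for Kars, and most mitochondrial genes lie near 0.

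The mitochondrial synthetases did not move together. Of 16 genes, 15 reached the expression filter, and of these 3 were called higher, 2 lower and 10 were not called, with a median log2 fold change of 0.05. These shares, 20% higher and 13.3% lower, both lie below the 35.8% and 29.8% of all tested genes. Of the 15, 3 had all cKO libraries above WT and 4 had all below, beside 39.2% and 33.3% of all tested genes. Ears2, for glutamate, was below the filter at 0.799 to 1.12 FPKM in WT and 0.857 to 1.22 in cKO and was not tested.

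Fars2, the mitochondrial phenylalanyl-tRNA synthetase, rose most. It was at 16.3, 19.2 and 18.8 FPKM in WT and at 42.6, 30.5 and 38.2 in cKO, with a log2 fold change of 0.99 ± 0.13 (SE, n = 3 per group, limma adjusted p = 0.000768). Yars2, for tyrosine, rose from 9.66, 9.92 and 9.37 FPKM to 12.1, 14.1 and 12.0, with a log2 fold change of 0.36. Iars2, for isoleucine, rose from 17.5, 17.5 and 17.2 FPKM to 18.8, 22.1 and 20.2, with a log2 fold change of 0.21 and an adjusted p of 0.0351. The groups of all 3 genes were separate, but the call of Iars2 was lost without any 1 WT library and without cKO 3.

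Vars2 and Aars2 fell. Vars2, the mitochondrial valine enzyme, was at 20.5, 21.7 and 21.0 FPKM in WT and at 10.9, 11.6 and 9.85 in cKO. Its log2 fold change was -0.91 ± 0.07 (SE, n = 3 per group, limma adjusted p = 0.000158), the smallest adjusted p of the 35 tested synthetases, and the 3 cKO libraries lay close together. Both valine enzymes, cytosolic and mitochondrial, were thus lower in cKO. Aars2, for alanine, went from 22.0, 21.9 and 20.6 FPKM in WT to 17.9, 15.9 and 16.4 in cKO, a log2 fold change of -0.35.

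Lars2, the mitochondrial leucine enzyme, had by far the highest value of the 36 genes and the widest spread. It was at 1189, 1192 and 1197 FPKM in WT and at 3214, 802 and 1382 in cKO. The cKO libraries thus lay both above and below WT, and the log2 fold change of 0.36 had a 95% interval of -0.72 to 1.43. The short noncoding RNAs Rmrp and Rpph1, chosen after their values were seen, had the same order among cKO libraries, with Rmrp at 4094, 653 and 749 FPKM and Rpph1 at 5606, 945 and 968. Unlike Lars2, both lay above WT in every cKO library, with 129 to 145 FPKM for Rmrp and 224 to 242 for Rpph1 in WT. Their relation to the Lars2 value was not tested. The other mitochondrial genes that did not pass had smaller differences. Hars2, for histidine, was at 14.7, 13.9 and 13.3 FPKM in WT and at 9.53, 14.6 and 12.0 in cKO, and Rars2, for arginine, was at 8.48, 9.06 and 8.42 and at 7.50, 12.4 and 11.5. In both genes the ranges overlapped. Nars2, for asparagine, and Mars2, for methionine, had all cKO libraries below WT but did not pass, with log2 fold changes of -0.22 and -0.10. Pars2, Sars2, Tars2, Wars2 and Cars2, for proline, serine, threonine, tryptophan and cysteine, had log2 fold changes of 0.22, 0.13, 0.05, -0.02 and -0.06.

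In summed FPKM without Lars2, the balance between the 2 gene lists shifted toward the cytosolic list. The mitochondrial list holds no gene for lysine or glycine, so Kars and Gars count only as cytosolic. The FPKM of a gene does not assign its RNA to a compartment, so the sums compare lists and not compartments. The 20 cytosolic genes summed to 583, 587 and 583 FPKM in WT, and in cKO to 1043, 787 and 1036. The mitochondrial genes without Lars2 summed to 171, 174 and 170 in WT, and in cKO to 182, 184 and 182. Their ratio to the cytosolic sum was 0.294, 0.296 and 0.291 in WT and 0.175, 0.233 and 0.176 in cKO, and a single scaling factor per library leaves this ratio as it is. With Lars2, which made up 81.4% to 94.6% of the mitochondrial sum, the ratio was 2.34, 2.33 and 2.35 in WT and 3.26, 1.25 and 1.51 in cKO, so that the cKO libraries lay on both sides of WT. The comparison of the 2 lists therefore differs with and without this 1 gene.

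**Figure D3:**
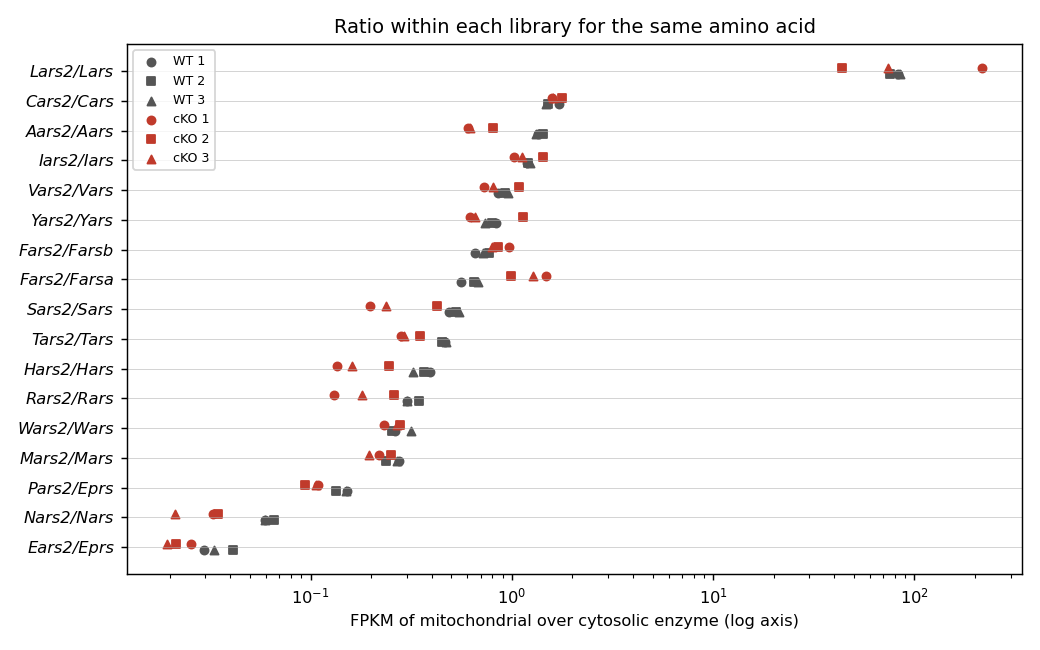
FPKM of each mitochondrial synthetase divided by that of the cytosolic enzyme for the same amino acid, in each library, on a log axis; Eprs and Fars2 each enter 2 ratios. The cKO symbols (red) lie entirely left of the WT symbols (grey) in 8 of 17 ratios and entirely right in 2.

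Ratios within each library were taken for 17 pairs of a mitochondrial and a cytosolic gene for the same amino acid. The ratio was lower in all cKO than in all WT libraries in 8 pairs, higher in 2 and overlapping in 7. Of all single tested genes, 39.2% lay entirely above WT and 33.3% entirely below. Separate groups are thus common in these libraries, and ratios of other gene pairs were not counted. Aars2 over Aars was 1.35, 1.43 and 1.32 in WT and 0.604, 0.805 and 0.616 in cKO, so that the more abundant of the 2 alanine genes changed from the mitochondrial to the cytosolic one. Hars2 over Hars had a mean of 0.361 in WT and 0.180 in cKO, and Nars2 over Nars one of 0.0615 and 0.0296. Sars2 over Sars, Tars2 over Tars, Rars2 over Rars, Pars2 over Eprs and Ears2 over Eprs were the others that were lower. The last of these rests on Ears2, which was below the expression filter. Both ratios that were higher belonged to Fars2, which had a mean of 0.629 of Farsa in WT and 1.25 in cKO. Vars2 over Vars overlapped, at 0.856, 0.926 and 0.961 in WT and 0.726, 1.08 and 0.810 in cKO, while both valine genes fell.

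The increases were uneven among the cKO libraries. Of the 16 synthetases called higher, 14 had their lowest cKO value in cKO 2, and 8 had their highest in cKO 1. The coefficient of variation had a median of 3.20% in WT and 13.7% in cKO over the 20 cytosolic genes, and of 4.67% and 8.98% over the 16 mitochondrial genes. It was larger in cKO for 18 cytosolic and 14 mitochondrial genes. The matching shares of all tested genes were not counted, so neither the order nor the spread is particular to the synthetases on these values. The FPKM total was also lowest in cKO 2, at 701396, beside 791104 in cKO 1 and 850548 in cKO 3.

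How many synthetases were called depended on the scaling and on how the WT libraries were counted. The summed FPKM of all genes was 521296 to 531517 in the WT and 701396 to 850548 in the cKO libraries. Rn45s, the ribosomal RNA precursor, chosen after its values were seen, was at 6028 to 6118 FPKM in the WT libraries and listed at 0 in all 3 cKO libraries, and its part in the synthetase values was not tested. When each library was set to the same FPKM total, the median log2 fold change of all genes moved to -0.45, and 5 cytosolic genes were called higher and 6 lower, with 1 mitochondrial gene higher and 10 lower. Under that scaling 8.74% of all tested genes were called higher and 59.9% lower. With each total set to 1000000 FPKM, the cytosolic sum was 1096 to 1125 in WT and 1318, 1123 and 1218 in cKO, so that cKO 2 lay within the WT range. After the values were corrected for GC content and the length of the transcript, 16 cytosolic genes were called higher and none lower, and 5 mitochondrial genes were called higher and 1 lower, beside 31.8% and 25.2% of all genes. With the 3 WT libraries averaged into 1 sample, 5 cytosolic genes were higher and 1 lower, and 1 mitochondrial gene was called in each direction, beside 7.21% and 8.73% of all genes.

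Dars, Eprs, Hars, Kars and Rars of the cytosolic genes and Fars2 of the mitochondrial ones were called higher in the reported fit and in 5 alternatives (quantile scaling, same FPKM total, GC content and length correction, replicate block and WT as 1 sample). Vars2 was called lower in all of them, but its log2 fold change shrank from -0.91 to -0.27 after the GC content and length correction. Of all tested genes, 5.23% were called higher and 7.82% lower in all 6 fits. Vars kept its direction but was not called after the GC content and length correction, with a log2 fold change of -0.15 (limma adjusted p = 0.222). Aars2 turned from -0.35 to 0.25 under that correction (limma adjusted p = 0.0127).

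**Figure D4:**
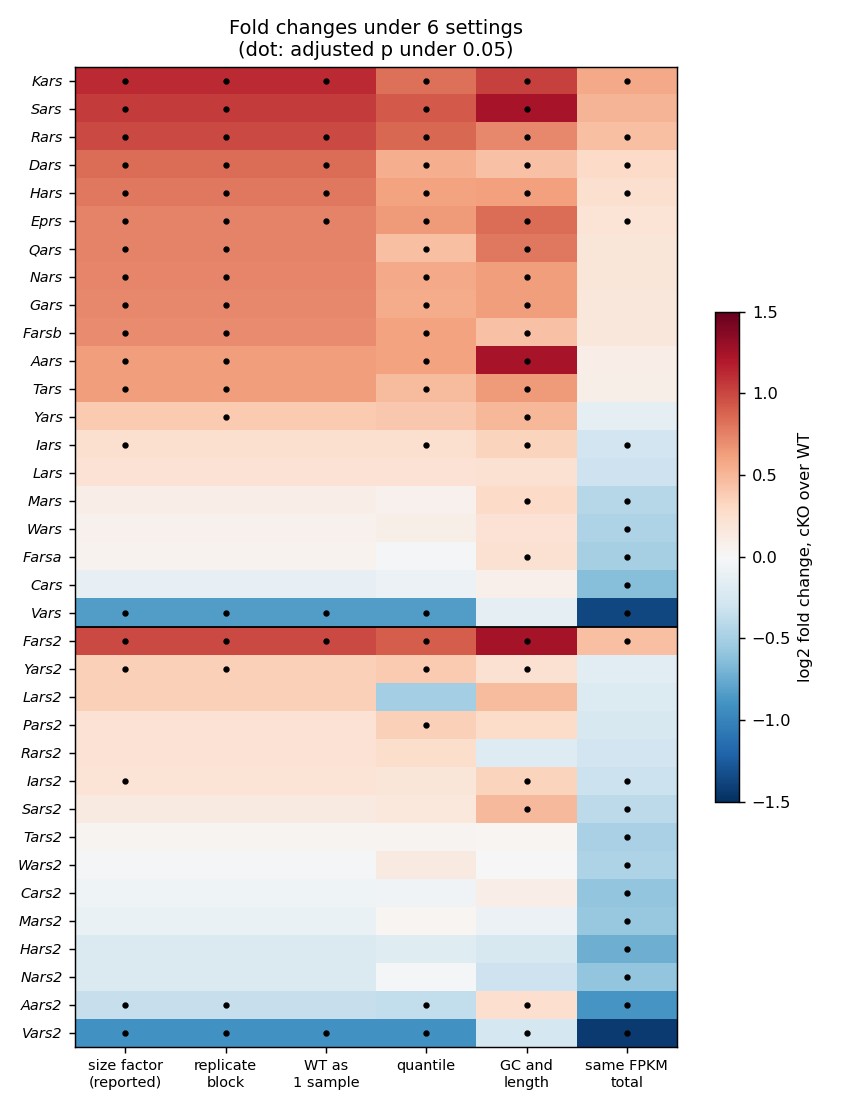
Log2 fold change of cKO over WT for the 35 tested synthetases (rows, cytosolic above the line) under 6 settings (columns), red for higher and blue for lower in cKO, with a dot where the adjusted p was under 0.05. Kars, Rars, Dars, Hars, Eprs and Fars2 are red with a dot in all 6 columns, Vars2 is blue with a dot in all 6, and the column of the same FPKM total is shifted toward blue.

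The GC content and length of the called genes differed. The 16 synthetases called higher had a median GC content of 47.8% and a median transcript length of 2772 nucleotides, and the 3 called lower had 60.0% and 4137 nucleotides. All tested genes had medians of 50.0% and 3003 nucleotides. Across the 35 tested synthetases, the Spearman correlation of log2 fold change was -0.23 with GC content and -0.32 with length, and across all tested genes it was -0.33 and -0.30. These are descriptions across genes of the same 6 libraries.

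The same calls were counted by complex and by fold, beside the 35.8% of all tested genes called higher and 29.8% called lower. Of the 8 complex enzymes, 6 (Dars, Eprs, Iars, Kars, Qars and Rars) were called higher and 2 (Lars and Mars) were not called, with a median log2 fold change of 0.74. Of the 17 tested class I enzymes, which share a Rossmann-type catalytic fold, 5 (29.4%) were higher and 2 (11.8%) lower, with a median of 0.21. Of 17 class II enzymes, built on an antiparallel sheet, 10 (58.8%) were higher and 1 (5.88%) lower, with a median of 0.63. Of the 13 cytosolic genes listed as ATF4-responsive in textbook accounts, 7 (53.8%) were higher and 1 (7.69%) lower, with a median of 0.40. At the same FPKM total these counts were 4 higher and 2 lower for the complex, 1 and 10 for class I, 4 and 6 for class II, and 1 and 5 for the ATF4-responsive genes.

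Proteins that work beside the synthetases were described in the same way. All 3 scaffold genes of the complex were higher. Aimp2 rose from 10.9, 12.2 and 13.2 FPKM to 30.8, 19.2 and 26.9, with a log2 fold change of 1.00. Eef1e1, which encodes AIMP3, rose from 20.7, 21.0 and 21.0 to 37.7, 38.2 and 47.5, and Aimp1 from 68.7, 70.4 and 67.3 to 118, 101 and 142. None of the scaffold ranges overlapped between the genotypes, and 39.2% of all tested genes also had all cKO libraries above WT.

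Elongation factors take the charged tRNA from the synthetase, and 4 of 6 were called higher, with none lower. Eef1a1, which delivers charged tRNA to the cytosolic ribosome, had a log2 fold change of 1.07, and Eef1b2 and Eef1d, subunits of its exchange factor, had 0.96 and 1.30. Tufm, its mitochondrial counterpart, named after its values were seen, rose by 0.80, from 48.1 to 52.8 FPKM in WT to 67.1 to 108 in cKO. Of the tRNA maturation and export genes, 14 of 19 tested were higher and 1, the splicing endonuclease subunit Tsen34, was lower at -0.24. Rpp30, a subunit of RNase P, which removes the 5′ leader of tRNA precursors, was at 18.1, 17.6 and 16.5 FPKM in WT and at 37.8, 37.8 and 39.7 in cKO. Trnt1, which adds the CCA end to which amino acids are attached, had a log2 fold change of 0.60, and Pop4, another RNase P subunit, one of 0.72. These counts stand beside the 35.8% of all tested genes that were called higher, and no test of a list was made. At the same FPKM total, the tRNA maturation list had 2 genes higher and 6 lower, with a median of 0.00075. The elongation factors then had 3 higher and 1 lower, and the 3 scaffold genes were still called higher. Under quantile scaling, the elongation factors had 3 higher and 0 lower, with a median of 0.22.

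Glutaminyl-tRNA in mitochondria is made by an amidotransferase, and its subunits Gatb, Gatc and Qrsl1 were higher, with log2 fold changes of 0.64, 0.29 and 0.36, while Mtfmt, which formylates the initiator methionyl-tRNA, was not called at -0.16. Of 6 editing enzymes and relatives, the D-aminoacyl-tRNA deacylases Dtd1 and Dtd2 and the alanine editing protein Aarsd1 were higher, at 0.72, 0.35 and 0.73. The share of all tested genes called higher was 35.8%. At the same FPKM total, 0 of these 6 genes were higher and 3 were lower. Under that scaling, 0 of the 4 mitochondrial genes named above were higher and 2 were lower. After the GC content and length correction, the editing list had 2 higher and 2 lower, and the mitochondrial list had 1 in each direction.

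**Figure D5:**
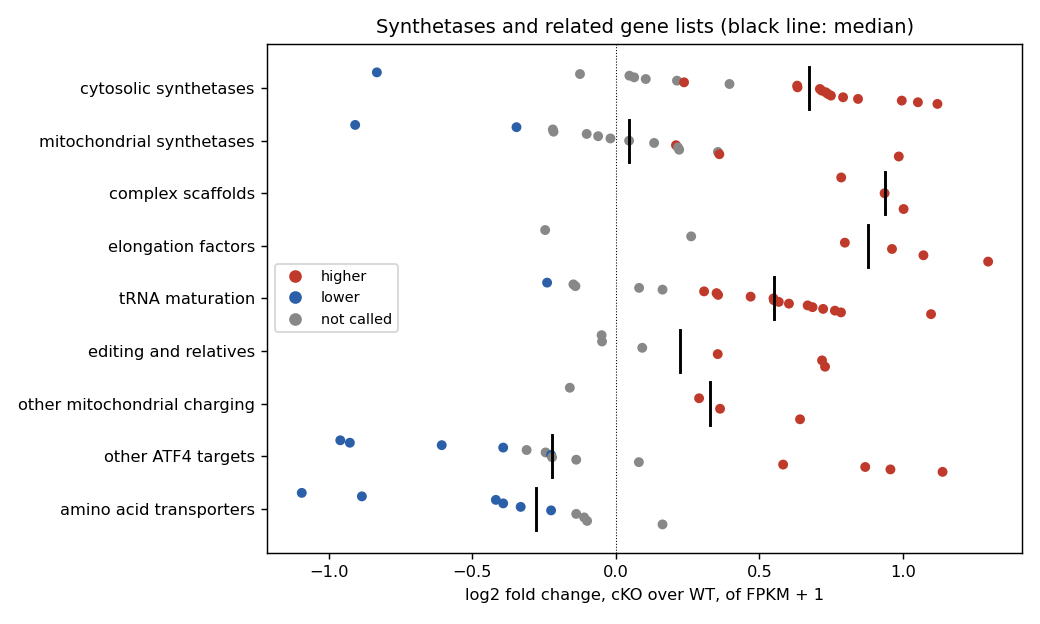
Log2 fold change of cKO over WT of each tested gene in the synthetase and related lists, with red for called higher, blue for called lower, grey for not called and a black line at each list's median. The medians lie at 0.94 for scaffolds, 0.88 for elongation factors, 0.67 for cytosolic and 0.05 for mitochondrial synthetases and -0.28 for amino acid transporters.

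Amino acid transporters and ATF4 targets other than synthetases were counted in the same way. Of 10 tested transporters, none was called higher and 6 were lower, beside 35.8% and 29.8% of all tested genes. Quantile scaling gave 1 higher and 7 lower, and the GC content and length correction gave 1 and 5. At the same FPKM total, 0 were higher and 10 lower, where 59.9% of all tested genes were called lower. Slc38a1, a glutamine transporter, went from 35.4, 34.1 and 34.2 FPKM in WT to 25.2, 25.4 and 26.3 in cKO. Slc3a2, the heavy chain of several amino acid exchangers, had a log2 fold change of -0.39, and Slc43a1, a transporter of large neutral amino acids, one of -0.33. Of 14 tested ATF4 targets other than synthetases, 4 (28.6%) were higher and 5 (35.7%) lower in the reported fit, near the shares of all tested genes. Quantile scaling gave 4 higher and 7 (50.0%) lower, where 29.9% of all tested genes were lower. At the same FPKM total, 3 were higher and 10 (71.4%) lower, beside 59.9% of all tested genes lower. The GC content and length correction gave 4 higher and 3 lower of 13 tested. The genes named next are those of the reported fit. The 3 increases with the smallest adjusted p were Mthfd2, of mitochondrial folate metabolism, at 0.87, and Psat1 and Psph, of serine synthesis, at 1.14 and 0.58. Of the decreases these were Slc3a2, Sesn2 and Ddit4, with -0.61 for Sesn2 and -0.96 for Ddit4, both stress-induced inhibitors of mTORC1 signalling. Outside this naming rule, and named after their values were seen, Phgdh, also of serine synthesis, was the other increase, and the transcription factor gene Cebpb and the amino acid exchanger gene Slc7a5 were the other decreases. Atf4 itself was at 119.8 to 120.4 FPKM in WT and at 83.2, 139 and 94.1 in cKO and was not called (log2 fold change -0.22, limma adjusted p = 0.291). Its cKO libraries lay on both sides of WT. Asns, asparagine synthetase and a classical ATF4 target, was chosen after its values were seen and lay below the filter, at 0.305 to 0.364 FPKM in WT and 0.0334 to 0.0842 in cKO.

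Promoter sequences were taken from RefSeq on GRCm38.p6 for the 26 of 36 members that had one, as windows from 250 bases before to 50 after the annotated start. The core of the C/EBP-ATF response element, TGATGNAA, was searched on both strands, since it is the element that ATF4 binds in textbook accounts. It was in 5 of 12 cytosolic windows (Aars, Gars, Iars, Tars and Yars) and in 0 of 14 mitochondrial windows, and 4.51% of all 27025 genes with a window had it. The E-box CACGTG was in 4 of 12 cytosolic windows (Aars, Farsb, Iars and Tars) and 1 of 14 mitochondrial windows (Ears2), and in 8.09% of all genes. The ETS site CCGGAAGT was in Farsa and Rars2 and in 4.31% of all genes. Of the 5 genes with the ATF element, 4 were called higher and Yars was not. Of the cytosolic genes whose window lacked it, Dars, Eprs, Farsb, Kars, Qars and Sars were called higher and Farsa was not. A link between the element and the calls was not tested. Dars, Eprs, Kars, Qars, Sars, Fars2, Iars2 and Yars2, which were called higher, had none of the 3 motifs in their windows, nor had Vars2.

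The windows of the 5 cytosolic genes that hold the element are shown with those of Kars, the largest increase, and Vars2, the mitochondrial decrease called in the 6 fits above. Each runs 5′ to 3′ along the gene from 150 bases before the start to 25 bases after it, and capitals mark the element (TGATGNAA or its reverse complement) and the E-box.
Aars (GRCm38.p6 chr8:111033692-111033866, plus strand): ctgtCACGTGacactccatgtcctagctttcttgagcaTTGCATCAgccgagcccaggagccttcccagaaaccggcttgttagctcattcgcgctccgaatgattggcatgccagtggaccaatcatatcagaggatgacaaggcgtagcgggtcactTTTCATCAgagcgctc
Gars (chr6:55037851-55038025, plus strand): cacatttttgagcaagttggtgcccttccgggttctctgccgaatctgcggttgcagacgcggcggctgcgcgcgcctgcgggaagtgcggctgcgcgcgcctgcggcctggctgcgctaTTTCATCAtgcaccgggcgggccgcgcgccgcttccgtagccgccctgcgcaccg
Tars (chr15:11399634-11399808, minus strand): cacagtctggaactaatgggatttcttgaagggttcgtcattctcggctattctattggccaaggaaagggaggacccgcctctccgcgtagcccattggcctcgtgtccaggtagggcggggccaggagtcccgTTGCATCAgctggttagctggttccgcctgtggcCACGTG
Iars (chr13:49681980-49682154, plus strand): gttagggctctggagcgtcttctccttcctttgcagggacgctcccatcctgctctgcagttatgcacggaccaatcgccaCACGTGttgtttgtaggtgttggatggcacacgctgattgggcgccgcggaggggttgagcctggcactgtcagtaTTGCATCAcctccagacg
Yars (chr4:129189753-129189927, plus strand): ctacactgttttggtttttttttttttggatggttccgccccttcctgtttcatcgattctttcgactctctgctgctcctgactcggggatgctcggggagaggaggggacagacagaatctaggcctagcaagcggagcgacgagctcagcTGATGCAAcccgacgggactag
Kars (chr8:112011330-112011504, minus strand): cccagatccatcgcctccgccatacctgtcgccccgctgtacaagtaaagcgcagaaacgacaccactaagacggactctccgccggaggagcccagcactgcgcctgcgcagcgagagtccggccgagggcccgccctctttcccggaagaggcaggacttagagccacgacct
Vars2 (chr17:35667568-35667742, minus strand): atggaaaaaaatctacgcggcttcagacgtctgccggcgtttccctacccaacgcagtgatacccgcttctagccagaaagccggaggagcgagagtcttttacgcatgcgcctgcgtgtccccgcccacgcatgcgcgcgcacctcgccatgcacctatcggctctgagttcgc
Aars holds the element at 2 places, and Gars, Tars, Iars and Yars hold it once, within 30 bases of the start. Aars, Tars and Iars also hold an E-box in the stretch shown. A match is a description of the letters and not a bound site.

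Several synthetase genes start head to head with another gene, and the neighbours did not always move together. Hars and Hars2 on chromosome 18 have starts 197 nucleotides apart, and Hars had a called log2 fold change of 0.79 while Hars2 had one of -0.22 that was not called (limma adjusted p = 0.194). Kars starts 75 nucleotides from Terf2ip, whose log2 fold change was -0.0039 beside the 1.12 of Kars. Yars at 0.40 starts 33 nucleotides from S100pbp, which was called lower at -0.33. Fars2 at 0.99 starts 114 nucleotides from Lyrm4, which was at 0.46 and was not called. Rars2, not called at 0.22, starts 13 nucleotides from Orc3, which was called higher at 0.36. Sars2, not called at 0.13, starts 172 nucleotides from Mrps12, which was called higher at 0.35. Wars at 0.06 and Wdr25 at 0.10, with starts 543 nucleotides apart, were both not called. Ears2, which was not tested, starts 88 nucleotides from Ubfd1, which was not called at -0.12. The differences between neighbours were not tested. Of the 36 members, 11 overlap another protein-coding gene in GENCODE release 21, among them Hars with Hars2, Mars with Ddit3 and Fars2 with Lyrm4 and Nrn1. The kit marks strand, but the strand setting used for the FPKM is not given in the sources used here, so reads of overlapping genes may be shared between them.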

How the data were processed

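Per the study's methods, poly(A)-enriched directional libraries were read as pairs, trimmed with fastx trimmer and mapped to mm10 with Tophat, and the authors deposited 1 FPKM value from Cufflinks per gene symbol and library. Versions, the annotation and the strand setting of these tools are not given in the sources used here. FPKM is no count, so the authors' count test was not repeated.

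FPKM values were divided by median-of-ratios size factors (1.00 to 1.01), and log2 of the value plus 1 was compared between genotypes in R 4.3.3 by limma 3.58.1 (lmFit, eBayes with a trend). Genes that reached 1 FPKM in 3 or more libraries entered (10326), and p-values were adjusted over all of them by Benjamini-Hochberg at 0.05, two-sided. Fold changes on this scale understate those of low genes. Intervals are 95% intervals from limma's moderated statistic. On simulated data, the fit was tested with known changes. The depth estimate used the smallest steps between low values, each worth 1 fragment, in genes with a single transcript, with an assumed fragment length of 200 nucleotides. Coordinates, lengths and overlaps came from GENCODE mouse release 21 (GRCm38, as mm10). Python 3.11.15 with pandas 2.3.3 and matplotlib 3.10.9 made summaries and figures.

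All 36 members are reported, and from each related list at most 3 called genes per direction with the smallest adjusted p are named, beside Nsrp1 and genes said to be chosen later. The members and lists were chosen with earlier results of these data known.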

Additional observations from a re-analysis of the deposited data

How the results depend on the processing

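With every library at the same FPKM total, 5 cytosolic genes were higher and 6 lower, and 1 mitochondrial gene was higher and 10 lower. The log2 fold changes that then turned negative were those of Farsa (-0.50), Iars (-0.29), Lars (-0.32), Mars (-0.43), Wars (-0.46), Yars (-0.13), Iars2 (-0.32), Lars2 (-0.21), Pars2 (-0.24), Rars2 (-0.29), Sars2 (-0.39), Tars2 (-0.48) and Yars2 (-0.15). With quantile scaling, Farsa (-0.027), Lars2 (-0.51), Mars2 (0.0328) and Wars2 (0.13) changed sign. With the correction for GC content and length, 0 cytosolic genes were lower, 5 mitochondrial genes were higher and 1 was lower, and Cars (0.0807), Aars2 (0.25), Cars2 (0.10), Rars2 (-0.19) and Wars2 (0.0111) changed sign. With the WT libraries as 1 sample, 5 cytosolic and 1 mitochondrial genes were higher and 1 in each compartment was lower. With both choices together, which was added after the data were seen, 0 were called in either compartment and direction, against 6 higher and 22 lower among all genes, and the log2 fold changes were those of the correction alone. Leaving out 1 library at a time gave 11 to 15 cytosolic and 2 to 5 mitochondrial genes called higher, with the highest counts without cKO 2 and Mars, Yars, Pars2 and Sars2 then called higher, and log2 fold changes from -0.0526 to 0.18 for Wars, -0.18 to 0.83 for Lars2 and -0.0541 to 0.0374 for Wars2. The causes of these changes were not tested.

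Deviations of same-numbered libraries from their group means correlated at -0.02, 0.04 and 0.03. The WT deviations were little more than counting noise, so these values cannot show whether the replicate numbers pair the libraries. With the replicate block, 13 cytosolic and 2 mitochondrial genes were higher, Yars was called (limma adjusted p = 0.0484) and Iars and Iars2 were not. The pseudocount of 0.1, the stricter filter of 5 FPKM and a fit without a trend changed no call of a tested member, and without a filter Iars was not called. A transcript of 2000 nucleotides at 1 FPKM stands for 23.6 to 37.4 fragments, which limits Ears2 and Nars2. Depth does not limit the abundant members.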
